A study of Mus musculus with 14 samples.

Results

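Potassium channel subunit genes were followed in mouse cortical neuron cultures exposed for 1 h to 5 treatments. The members are all rows whose gene symbol begins with Kcn, then lower-case letters and a number. Of 45802 rows, 97 matched, and 92 of them had a value in at least 1 library (18128 of all rows). The 5 rows without a value were Kcnk16 and the overlapping or antisense transcripts Kcnd3os, Kcnq1ot1, Kcnmb4os1 and Kcnmb4os2. A filter on low values dropped 40% of the rows with a value and left 56 members among 10877 genes tested. The 36 members below it comprised 19 with a value in every library and 17 missing from some.

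Cortical neurons from wild-type C57BL/6 mice were grown for 12 days in vitro, and ribosome-depleted total RNA was sequenced from 14 libraries. The 2 control libraries, replicates 2 and 3, came from cultures given 1% dimethyl sulfoxide (DMSO), the solvent. Each other group had 3 libraries. Bicuculline, at 20 µM, blocks GABA-A receptors and so relieves inhibition in the culture. Peptides released by the neuronal membrane proteasome (NMP), a proteasome complex in the neuronal plasma membrane, were applied at 4% by volume. The same 4% by volume was applied after cleavage of the peptides by proteinase K (PK). The fifth group received 4% NMP peptides with 100 µM APV, an antagonist of NMDA-type glutamate receptors. No group received APV alone, and the solvent content of the other groups is not given in the sources used here. What distinguishes the biological replicates is not stated, so the p-values reflect spread among these libraries, which may be technical.

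Potassium channels let potassium ions leave or enter the cell and set the resting potential, the shape of the action potential and the rate of firing. Voltage-gated families open on depolarisation: Shaker (Kcna), Shab (Kcnb), Shaw (Kcnc), Shal (Kcnd), KCNQ (Kcnq) and ether-a-go-go (Kcnh). Silent modifiers (Kcnf, Kcng, Kcns, Kcnv) make no channel alone and combine with Shab subunits. Other families respond to intracellular calcium or sodium, rectify inward current or leak at rest, and auxiliary subunits tune gating and trafficking.

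The potassium channel genes that carry most of the results below are shown first by the stretch of coding sequence for their selectivity filter, beside Kcnb2, a subunit of the Shab family with which silent modifiers assemble. Each run has 39 bases, 5′ to 3′ on the coding strand. The capitals mark an in-frame match to GGNTANGGN whose second codon is for tyrosine, the Gly-Tyr-Gly signature of potassium-selective pores. The windows come from the GENCODE M21 transcripts on build GRCm38, where Kcnb2 lies on the plus strand and the others on the minus strand.
Kcnf1, chr12:17175049-17175087: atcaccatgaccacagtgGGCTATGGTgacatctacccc
Kcng1, chr2:168262629-168262667: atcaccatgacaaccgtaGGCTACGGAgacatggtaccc
Kcnv1, chr15:45109277-45109315: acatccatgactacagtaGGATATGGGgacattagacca
Kcnb2, chr1:15710034-15710072: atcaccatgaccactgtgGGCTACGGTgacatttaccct
Over the 39 bases, Kcnf1 shared 35 with Kcnb2, Kcng1 shared 30 and Kcnv1 shared 26. The signature was found in 38 of the 47 tested pore-forming or modifier members, among them 5 of 5 silent modifiers. It was found in 0 of 9 auxiliary subunits, which form no pore, and in 0 of 4 ether-a-go-go genes, whose filter has another residue in place of the tyrosine.

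Values are log2 signals scaled per exon length, so levels can be compared between genes. Every library had the same median, 2.19, and the same maximum, 12.0, because the deposited values were quantile normalised. Read depth is therefore unknown. Neuronal markers were present in every library, with a log2 summed level of 9.81 to 10.2, and astrocyte markers were at 8.44 to 8.78. None of 6 microglial and none of 5 endothelial or mural markers passed the filter. In bulk RNA, fewer cells of a type and less RNA per cell cannot be told apart. Npas4, an activity-induced transcription factor, was higher than with DMSO by 4.33 with bicuculline (limma adjusted p = 5.7e-06) and by 2.08 with NMP peptides (adjusted p = 0.045) on the log2 scale. The second of these calls was lost without DMSO replicate 2 or NMP peptides replicate 1 or 2 (adjusted p 0.23 to 0.47). It was also lost in a fit that blocks the replicate number, with only the compared groups fitted, and with libraries weighted by their quality. One library in each group but the APV group stood apart by a high level of Gfap, an astrocyte filament gene: DMSO replicate 2 at 4.13, bicuculline replicate 2 at 4.18, NMP peptides replicate 3 at 4.15 and PK-cleaved peptides replicate 3 at 3.97, against at most 3.47 elsewhere. Calls of the APV group against the other peptide groups are given with and without these 4 libraries. Shares, family medians and counts without overlap are given with all libraries only.

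The Shaker subunit Kcna6 was among the most abundant members, with a mean over 14 libraries of 4.15. Kcnf1 followed at 4.11, then the beta subunit Kcnab2 at 3.89, Kcnq3, a subunit of the M-current that restrains repetitive firing, at 3.70 and Kcnd2, a Shal subunit of the dendritic A-type current, at 3.62. Kcnmb4 (3.60), a beta subunit of the large-conductance calcium-activated channel, Kcnh3 (3.57), Kcnk2 (3.56), a two-pore-domain leak channel, and Kcnd3 (3.54) were also among the 10 highest. Together the 10 highest members made up 40.6% of the summed linear signal of all members with a value, and the 56 tested members 97.5%.

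Every family had a member above the median tested level of 2.37. Among the fast-spiking Shaw subunits, Kcnc1 led at 3.01. Kcnma1, the large-conductance calcium-activated channel, led its family at 3.29, and Kcnj4 led the inward rectifiers at 3.37. Auxiliary subunits, pooled from Kcnab, Kcne, Kcnip and Kcnmb genes, gave a larger share of the summed signal than any other family. They were also the largest set, with 16 of the 92 members. The 8 Shaker genes gave 9.73% and the 10 silent modifiers 9.34%. Neighbouring Shaker genes differed in level on both chromosome 6 and chromosome 3. On chromosome 6 of GRCm38, Kcna6 (126708328 to 126740834) was at 4.15, Kcna1 (126636463 to 126645801) at 2.40 and Kcna5 (126532551 to 126535555) at 0.46. On chromosome 3, Kcna3 (107036162 to 107038129) was at 2.37 and Kcna2 (107090883 to 107115005) at 2.20. Kcna10 (107183143 to 107195721), below the filter, had a value in 6 libraries, with a mean of -3.99. At the filter, Kcnab3 was the lowest member tested, with a mean of 0.35, and Kcnk4 lay just below, at 0.31.

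**Figure D1:**
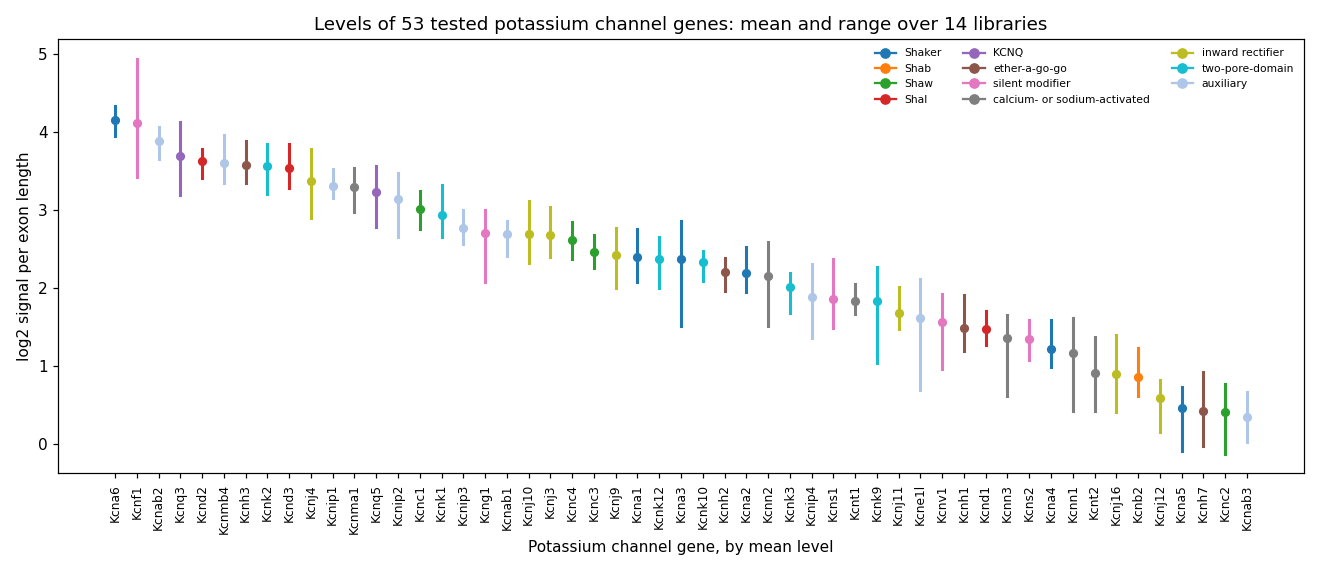
Mean log2 signal per exon length (points) and range over 14 libraries (lines) of 53 of the tested potassium channel genes, ordered by mean and coloured by family. Of those plotted, Kcna6 stands highest at 4.15 and Kcnab3 lowest at 0.35, and Kcnf1 has a wide range.

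Most members varied little between replicates. The median within-group standard deviation (SD) of the tested members was 0.18 on the log2 scale. Kcna6 had the smallest, 0.090, and Kcne1l, a single-span accessory subunit, the largest, 0.41. For Kcne1l the 2 DMSO libraries were at 2.12 and 0.69, further apart than any 2 group means of this gene. Replicate 1 of the PK-cleaved peptides was low for several members: Kcna3 was at 1.51 against 2.77 and 2.24 in the other replicates. The two-pore-domain channel Kcnk9 was at 1.05 there against 2.11 and 1.84, and the small-conductance calcium-activated channel Kcnn3 at 0.62 against 1.60 and 1.39. Members also moved together within a library. In bicuculline replicate 1, 53 of 56 were above their own mean, and 50 in PK-cleaved peptides replicate 2, against 14 in NMP peptides replicate 3. The median deviation of the members was 0.11, 0.15 and -0.11 in these libraries, beside 0.0047, -0.018 and 0.0022 over all tested genes. The APV libraries had 22, 16 and 24 members above the mean. Their median deviations were -0.059, -0.14 and -0.058 over the members and -0.019, -0.03 and 0.003 over all tested genes.

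**Figure D2:**
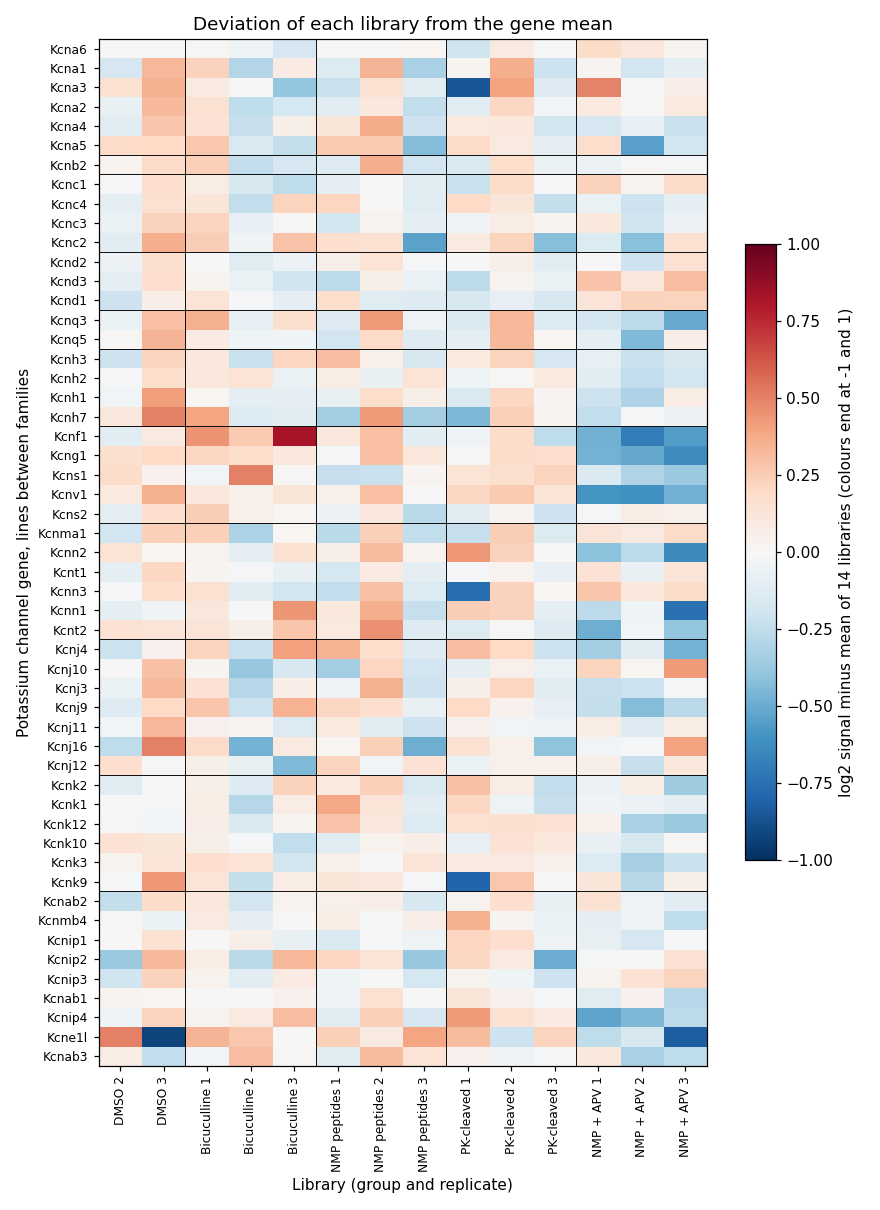
Deviation of each library from the gene's mean over 14 libraries (log2 signal), with 53 potassium channel genes in rows by family and libraries in columns by group. Kcng1, Kcnv1, Kcnf1, Kcnn2 and Kcnip4 are low in the 3 APV columns, and Kcnf1 is high in bicuculline replicate 3.

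The comparison of NMP peptides alone with NMP peptides plus APV asks what differs when APV is added to the peptides. With no group given APV alone, an effect of APV without the peptides cannot be told apart. The silent modifier genes Kcng1, Kcnv1 and Kcnf1 were higher with the peptides alone, by 1.59-fold, 1.60-fold and 1.60-fold. So was Kcnn2, a small-conductance calcium-activated channel of the afterhyperpolarisation. In all, 5 of 56 members were called (8.93%), all higher without APV, against 1.43% of all genes tested. An adjusted p below 0.05 in limma, corrected over all tested genes, is termed a call.

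The level of Kcng1 (chr2:168260117-168281533) was 2.69, 3.00 and 2.81 with NMP peptides and 2.23, 2.19 and 2.08 with APV added. It was 2.86 and 2.91 with DMSO, 2.91, 2.88 and 2.81 with bicuculline and 2.71, 2.89 and 2.87 with PK-cleaved peptides. The APV libraries lay below all the others, and those others differed little. The log2 difference between peptides alone and peptides plus APV was 0.67 (SE 0.088, limma adjusted p = 0.0022).

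Kcnv1 (chr15:45096086-45115912) stood at 1.62, 1.87 and 1.57 with NMP peptides and at 0.97, 0.97 and 1.09 with APV. The remaining libraries ran from 1.62 to 1.92, so the APV group again did not overlap any other. Its log2 difference was 0.68 (SE 0.10, limma adjusted p = 0.0051).

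Kcnf1 (chr12:17172100-17176888), the most abundant silent modifier, was at 4.22, 4.42 and 4.01 with NMP peptides and at 3.63, 3.42 and 3.55 with APV. DMSO libraries had 4.01 and 4.20, and PK-cleaved peptide libraries 4.08, 4.30 and 3.86. Bicuculline libraries reached 4.56, 4.37 and 4.94, so this gene had its lowest values with APV and its highest mean with bicuculline. Between peptides alone and peptides plus APV it differed by 0.68 (SE 0.15, limma adjusted p = 0.032), a call that was lost without any 1 of NMP peptides replicates 1 and 2 or APV replicates 1, 2 and 3 (adjusted p 0.079 to 0.12), and in a fit that blocks the replicate number (0.067).

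Kcnn2, on chromosome 18, had levels of 2.21, 2.48 and 2.19 with NMP peptides and 1.74, 1.89 and 1.52 with APV. The difference was 0.57 (SE 0.13, limma adjusted p = 0.042). The call held without APV replicate 2, but was lost without any other 1 library of the 2 groups (adjusted p 0.074 to 0.19). It was also lost without the filter (0.051), with the replicate block (0.053), with only the compared groups fitted (0.055) and without the 4 Gfap-rich libraries (0.085). Kcnn2 overlaps annotated genes on the opposite strand, and how strand was counted is not given, so their reads cannot be told apart.

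**Figure D3:**
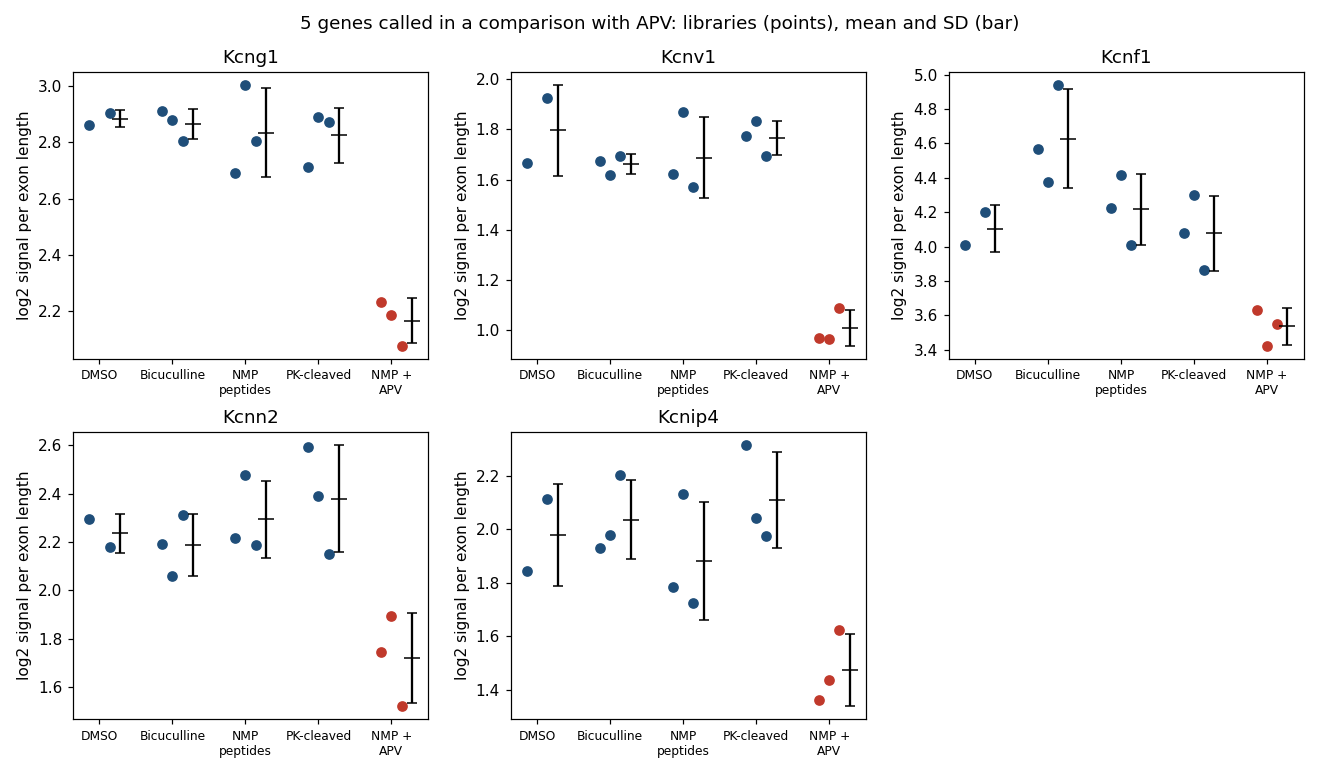
Log2 signal per exon length of Kcng1, Kcnv1, Kcnf1, Kcnn2 and Kcnip4 in each library (points; APV libraries red), with group mean and SD beside them (n = 2 for DMSO, n = 3 otherwise). In all 5 panels the 3 APV libraries lie below the 11 other libraries; vertical axes differ between panels.

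At an unadjusted p below 0.05, 18 of 56 members differed between peptides alone and peptides plus APV, 15 higher and 3 lower without APV, or 32.1% against 15.8% of all genes. Those in the other direction included Kcnd3 and Kcnj10, the astrocytic inward rectifier, and none of the 3 was called. Kcnd3 was at 3.28, 3.60 and 3.47 with peptides and 3.82, 3.65 and 3.85 with APV (log2 difference -0.32, SE 0.11, limma adjusted p = 0.17). Kcnq3 had 3.57, 4.13 and 3.65 with peptides and 3.51, 3.44 and 3.19 with APV, a difference of 0.40 (limma adjusted p = 0.28, not called).

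Families can be read by their medians, beside a median of 0.01 over all genes and 0.12 over the 56 members. Silent modifiers had a median log2 difference of 0.67, with 3 of 5 called and 4 of 5 above 0. Kcns1 and Kcns2 were the members not called. All 6 two-pore-domain genes, which carry leak current, were above 0 (0.07 to 0.30), beside 53.5% of all genes, as were all 4 ether-a-go-go genes (0.02 to 0.23), with 0 called in either family and 2 and 1 at an unadjusted limma p below 0.05. Shaker genes had 3 above and 3 below 0 and Shaw genes 2 and 2, with 0 called and 0 at an unadjusted p below 0.05. Of the 9 auxiliary subunits 0 were called and 2, Kcnip4 and Kcne1l, had an unadjusted p below 0.05.

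**Figure D4:**
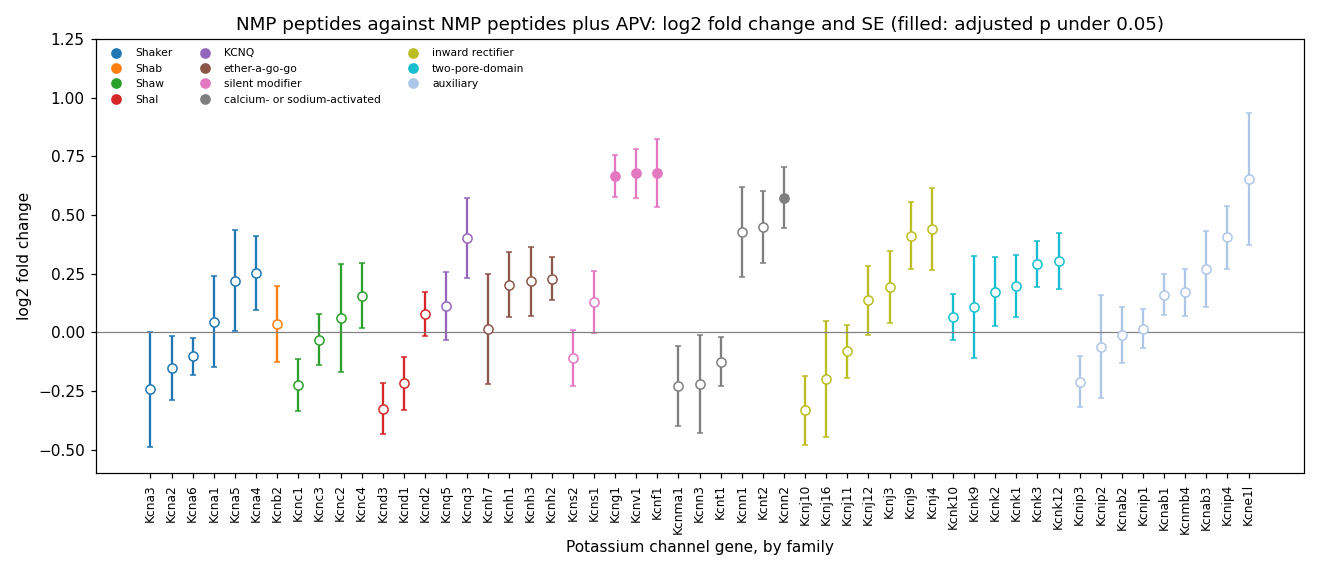
Log2 fold change (points) and standard error (lines) of 53 tested potassium channel genes (NMP peptides alone minus peptides with APV), by family; positive values are higher without APV and filled points have a limma adjusted p under 0.05. The 4 filled points are Kcng1, Kcnv1, Kcnf1 and Kcnn2, and the 6 two-pore-domain genes are all above 0.

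The APV group was also set against the other controls. These comparisons share the same 3 APV libraries, so they are not independent of one another. Against PK-cleaved peptides, 5 of 56 members were lower with APV and 0 were higher, or 8.93% against 1.39% of all genes. Of these, Kcng1, Kcnv1 and Kcnn2 were also called against peptides alone. Kcng1 fell by 0.66 (SE 0.088, limma adjusted p = 0.0027) and Kcnv1 by 0.76 (SE 0.10, adjusted p = 0.0027). Kcnn2, with 2.59, 2.39 and 2.15 in the PK-cleaved libraries, fell by 0.66 (SE 0.13, limma adjusted p = 0.021), a call lost without PK-cleaved replicate 1 or 2 or APV replicate 1 or 3 (adjusted p 0.057 to 0.11) or with only the compared groups fitted (0.073).

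Another gene called here was Kcnip4 (chr5:48389503-49525122), a calcium-binding partner of Shal channels. It was at 2.31, 2.04 and 1.98 with PK-cleaved peptides and at 1.36, 1.44 and 1.62 with APV. DMSO libraries had 1.84 and 2.11, bicuculline libraries 1.93, 1.98 and 2.20 and NMP peptide libraries 1.79, 2.13 and 1.73. The difference from PK-cleaved peptides was -0.64 (SE 0.13, limma adjusted p = 0.033), and leaving out any 1 of the 6 compared libraries ended the call (adjusted p 0.058 to 0.15), as did the replicate block (0.074) and fitting only the compared groups (0.070). Kcnip4 overlaps 7 annotated genes on the opposite strand and 24 on its own, where Kcnn2 overlaps 4 and 0.

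Kcnf1 was 0.54 lower with APV than with PK-cleaved peptides on the log2 scale (SE 0.15, limma adjusted p = 0.090, not called). At an unadjusted p below 0.05, 17 members differed, 2 higher and 15 lower with APV, or 30.4% against 15.6% of all genes. The 2 higher members were both Shal subunits: Kcnd3 at 0.33 and Kcnd1 at 0.33 (limma adjusted p = 0.16 and 0.18, not called). Kcnd1 stood at 1.32, 1.40 and 1.32 with PK-cleaved peptides and 1.60, 1.70 and 1.70 with APV.

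Against DMSO, 3 of 56 members fell with APV and 0 rose, or 5.36% against 0.625% of all genes. Kcng1 fell by 0.72 (SE 0.099, limma adjusted p = 0.0041) and Kcnv1 by 0.79 (SE 0.12, adjusted p = 0.0061). On the linear scale these were 1.64-fold and 1.72-fold lower levels. Kcnn2, Kcnf1 and Kcnip4 differed by -0.52, -0.57 and -0.50 and were not called (limma adjusted p = 0.16, 0.17 and 0.19). This comparison rests on the 2 DMSO libraries: without DMSO replicate 3 the count was 0, with adjusted p of 0.085 for Kcng1 and 0.16 for Kcnv1. With only the compared groups fitted it was also 0, with adjusted p of 0.058 and 0.080.

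At an unadjusted p below 0.05, 13 members differed from DMSO, all of them lower with APV, or 23.2% against 11.5% of all genes. The median log2 difference was -0.16 over the members and -0.05 over all genes. Each of the 5 silent modifiers, the 4 ether-a-go-go genes and the 6 two-pore-domain genes was below 0, with Kcns2 at -0.0011, while 36.3% of all genes were above 0. Against PK-cleaved peptides, 1 silent modifier and 1 two-pore-domain gene were above 0, where 45.5% of all genes were. Of the 15 genes the 2 called against DMSO were Kcng1 and Kcnv1.

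For 9 members the 3 APV libraries lay below all 11 others, among them the called genes named above and Kcnq3, Kcnj9, a G-protein-gated inward rectifier, and Kcnh2, an ether-a-go-go channel. The corresponding share of all genes was 4.55%. Kcnj9 had 2.19, 2.00 and 2.16 with APV and 2.22 to 2.78 elsewhere, and Kcnh2 had 2.09, 1.96 and 2.02 against 2.14 to 2.39. For 0 members did the APV libraries lie above all others, against 3.45% of all genes.

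Summed markers of some cell types also differed in the APV libraries. The log2 summed level of the 6 inhibitory neuron markers was 8.44 to 8.51 with APV and 8.59 to 8.86 in the 11 other libraries. Sst made up the largest part of this sum, at 8.02 to 8.12 with APV and 8.14 to 8.51 elsewhere. Of the 5 tested inhibitory markers, 3 were lower and 2 higher with APV than with peptides alone. Against DMSO and against PK-cleaved peptides, 4 were lower and 1 higher. The 10 astrocyte markers were at 8.72 to 8.78 with APV, against 8.44 to 8.68. The 9 oligodendrocyte-lineage markers were at 7.13 to 7.46, against 6.89 to 7.35. Excitatory markers were at 8.03 to 8.25, within or above the 7.78 to 8.18 of the other groups. In limma, 0 of these marker genes were called against peptides alone, DMSO or PK-cleaved peptides, beside 1.43%, 0.625% and 1.39% of all genes. At an unadjusted limma p below 0.05, in that order, inhibitory markers numbered 2, 2 and 2 of 5 and astrocyte markers 4, 2 and 3 of 10. Excitatory markers numbered 2, 0 and 2 of 6, oligodendrocyte-lineage markers 2, 0 and 0 of 7, and neuronal markers 0, 0 and 1 of 5. The shares of all genes were 15.8%, 11.5% and 15.6%. The part of these shifts in the channel results was not tested.

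Without the 4 Gfap-rich libraries, 3 members were called between peptides alone and peptides plus APV (Kcnf1, Kcng1 and Kcnv1) and 2 against PK-cleaved peptides (Kcnn2 and Kcnv1). Kcng1 (limma adjusted p = 0.0501) and Kcnip4 were then not called against PK-cleaved peptides. The DMSO group then kept only replicate 3, so no calls are given for it. For Kcng1 and Kcnv1 the log2 differences from that library were -0.74 and -0.91, beside -0.72 and -0.79 with all libraries.

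Bicuculline asks what 1 h of disinhibition does. Against DMSO, 0 of 56 members were called, and 0.469% of all genes were; at an unadjusted p below 0.05, 1 member differed (1.79%, against 3.14% of all genes). That member was Kcnf1, whose 3 bicuculline libraries, from 4.37 to 4.94, were above the 2 DMSO libraries at 4.01 and 4.20. The log2 difference was 0.52 (SE 0.16, limma adjusted p = 0.60). Libraries of these groups did not overlap, in either direction, for 5 of 56 members and 17.8% of all genes. Against PK-cleaved peptides, a control that shares no library with DMSO, 0 members were called (0.533% of all genes) and Kcnf1 was again the 1 member with an unadjusted p below 0.05 (3.38% of all genes). There its difference was 0.55 (SE 0.15, limma adjusted p = 0.23). It was called only with libraries weighted by their quality in limma (adjusted p = 0.047).

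The next members by p-value with bicuculline did not stand out. Kcnj10 was at 2.72, 2.32 and 2.54 with bicuculline and 2.70 and 2.99 with DMSO, overlapping values with a log2 difference of -0.32 (SE 0.17). The leak channel Kcnk10 differed by -0.20 from DMSO. Kcns2 and the sodium-activated channel Kcnt2 were 0.20 and 0.24 higher than with PK-cleaved peptides. None of these was called.

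The promoter of Kcnf1 is shown because the gene had the highest mean with bicuculline and the lowest with APV. The 250 bases upstream of the RefSeq start, chr12:17176889-17177138 on the minus strand of GRCm38.p6, are printed in lower case since they held 0 matches to the half-site TGACG of the cAMP response element on either strand.
Kcnf1 promoter: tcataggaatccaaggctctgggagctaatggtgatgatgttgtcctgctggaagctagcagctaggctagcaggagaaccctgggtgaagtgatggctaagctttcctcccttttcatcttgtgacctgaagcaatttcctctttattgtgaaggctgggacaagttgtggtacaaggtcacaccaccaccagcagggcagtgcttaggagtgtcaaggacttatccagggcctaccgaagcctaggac
A promoter window was found for 38 of the 56 tested members, 59 windows in all, of which 7 (11.9%) held TGACG; of all 32851 windows in the RefSeq table, 17.8% did. The full element TGACGTCA, which contains that half-site, was in 0 of 59 member windows and 1.55% of all. TGANTCA, a site of AP-1, was in 3 member windows (Kcnip3, Kcnip4 and Kcnk2) and 6.75% of all, and GCGNGGGCG, a site of EGR factors, in 2 member windows and 4.70% of all. These are letter matches on both strands, not binding.

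Intact NMP peptides were compared with DMSO and with their PK-cleaved form. Against DMSO, 0 of 56 members were called (0.0184% of all genes), and 0 had an unadjusted p below 0.05 (2.02% of all genes). The members nearest the threshold included Kcnj11, the pore of the ATP-sensitive channel, at -0.23, and Kcns1 at -0.25 (limma adjusted p = 0.97). Without DMSO replicate 3 the Kcnj11 difference was -0.051. The median over the members was -0.09, against -0.04 over all genes.

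Against the cleaved peptides, 0 members were called (0.0827% of all genes) and 2 had an unadjusted p below 0.05, both lower with intact peptides (3.57%, against 1.65% of all genes). For 2 of 56 members, and 5.21% of all genes, these groups did not overlap. Kcns1 was among them, at 1.64, 1.65 and 1.89 with intact and 2.00, 2.03 and 2.09 with cleaved peptides. Its log2 difference was -0.32 (SE 0.13, limma adjusted p = 1). Kcnip1, another Shal partner, differed by -0.18, also with an adjusted p of 1. The fit that blocks the replicate number over all libraries also called 0 members. It takes the same replicate effect in every group, so it does not isolate the pairing of intact with cleaved peptides. A fit that pairs only these groups was not run.

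PK-cleaved peptides against DMSO gave 0 calls among the members and 0% among all genes, and 0 members with an unadjusted p below 0.05 (1.05% of all genes). The largest of the 3 differences with the smallest p-values, -0.45 for Kcna3, came with the low PK-cleaved replicate 1 described above. Without that library the difference was -0.12. Kcnk9 and Kcnh7, an ether-a-go-go channel, differed by -0.38 and -0.36, and by -0.074 and -0.17 without that library. Without DMSO replicate 3 they differed by -0.16 each.

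Partner proteins and other voltage-gated channels were examined beside the members. Of 20 partner genes listed, 15 were tested, including Dpp6 and Dpp10 of the Shal complex and several pacemaker channels. Only Cntn2, an adhesion protein that gathers Shaker channels beside the node of Ranvier, was called in any of the 8 comparisons. It was 0.65 higher with APV than with PK-cleaved peptides (SE 0.14, limma adjusted p = 0.033), 1 of 15 partners, beside 1.39% of all genes. That call was lost without PK-cleaved replicate 1 or 3 or APV replicate 1 or 3 (adjusted p 0.062 to 0.14) and without the 4 Gfap-rich libraries (0.12). It was also lost with the replicate block and with only the compared groups fitted. The other comparisons with APV gave 0 of 15, beside 1.43% of all genes against peptides alone and 0.625% against DMSO. At an unadjusted limma p below 0.05, partners numbered 6 of 15 against peptides alone, 3 against DMSO and 5 against PK-cleaved peptides, beside 15.8%, 11.5% and 15.6% of all genes. None of 6 tested sodium channel genes and none of 21 tested calcium channel genes was called in the 3 comparisons with APV. Over all genes the called shares were 1.43% against peptides alone, 0.625% against DMSO and 1.39% against PK-cleaved peptides. With so few genes, 0 calls do not set the sodium and calcium channel genes apart from all genes. At an unadjusted limma p below 0.05 they numbered 1, 1 and 0 of 6 for sodium channels and 1, 2 and 5 of 21 for calcium channels, in the same order and beside the same shares of all genes.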

How the data were processed

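Libraries from mouse cortical cultures were analysed from 1 deposited table of log2 signals, which the authors had quantile normalised as the values show: all 14 columns share their median and maximum. Base 2 and scaling per exon length were checked on the values. Per the submitters' processing notes, the genome build was GRCm38.p6. Which aligner, counter and annotation were used is not given in the sources used here. These scaled values are other than counts as deposited, so depth is unknown and no counting interval can be given. Rows were ranked by mean, taking the table minimum for missing cells in that step only, and the lowest 40% were dropped. All 14 libraries entered 1 limma fit (limma 3.58.1, R 4.3.3) with group means and a variance trend. Benjamini-Hochberg adjustment of the two-sided p-values covered 10877 genes in each of 8 comparisons, and values below 0.05 were called. The comparisons share libraries.

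Members and lists were chosen with earlier results of these data known. Named genes are the members called, the 3 smallest p-values where fewer than 3 were called, index members, the highest levels, and family leaders; some genes that the rule names are counted but not reported here. The members named for their variation, for libraries without overlap or for unadjusted p-values alone were chosen after their values were seen. Replicate numbers were taken from the labels. Deviations from the group means correlated at 0.51, 0.50 and 0.61 between same-numbered libraries of the intact and PK-cleaved peptides. No other pair of groups with 3 shared numbers exceeded 0.1 throughout. DMSO, with 2 libraries, correlated at 0.54 and 0.17 with bicuculline and at 0.30 and 0.35 with the APV group. Its correlations with the intact and the PK-cleaved peptides were negative. What same-numbered libraries have in common is not stated and was not tested. Alternatives covered the filter, the block, library weights, the groups fitted and each library left out. The procedure was tested on simulated data.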

Additional observations from a re-analysis of the deposited data

How the results depend on the processing

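None of the 40 differences of single genes that were refitted changed direction under the alternatives run, among them each member called; values given only as family ranges or as levels were not refitted. Other counts of called members stayed at their values or within 1.5 times of them. The APV group was compared with DMSO (3 called), NMP peptides alone (5) and PK-cleaved peptides (5), and counts below follow that order. With the lowest 60% dropped, 24 members were tested and 1, 2 and 1 were called; Kcnv1, Kcnn2 and Kcnip4 were then not tested. Fitting only the compared groups gave 0, 3 and 3. Without the 4 Gfap-rich libraries, an alternative chosen after seeing the data, the counts were 3 against peptides alone and 2 against PK-cleaved peptides. None is given for DMSO, which then kept only replicate 3. With each replicate left out in turn, the counts ran from 0 to 3, from 2 to 3 and from 3 to 4. With the replicate number as a block, 2, 2 and 4 members were called in these comparisons, and 0 in NMP peptides against PK-cleaved peptides; Kcnf1 and Kcnn2 were among the calls lost in the second and Kcnip4 was lost in the third. Library weights gave 1 call for bicuculline against PK-cleaved peptides. Kcng1 was called between peptides alone and peptides plus APV in 13 of 13 alternatives, and Kcnv1 in 12 of 12. The cause of the other losses was not tested.

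Quantile normalisation hides changes in total RNA, depth is unknown, and DMSO has 2 libraries.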
